A study of Mus musculus with 12 samples.

Results

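The genes described here encode the enzymes and transporters of glycolysis, lactate handling, the oxidation of pyruvate in mitochondria and the pentose phosphate pathway. The set was defined by 35 gene symbols, and a symbol counted as measured when at least 1 probe had a detection p-value under 0.05 on 3 or more arrays. By this rule 29 of the 35 were measured, out of 15308 genes and unnamed probes tested in the whole series. Aldoc, an aldolase, and Slc16a1, a lactate carrier, had probes that passed on 0 arrays. The hexokinase gene Hk2, Gpi1, Eno1 and G6pdx had no probe assigned to a single gene under these symbols and were not analysed here. Of the 29, 19 were detected on all 12 arrays, 19 were read by 1 probe each and 10 by several, and the brightest probe stood for its gene.

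The samples were regulatory T cells (Tregs), the T cells that use the transcription factor Foxp3 and restrain other immune cells, from C57BL/6 mice fed a high fat diet. Their source was either the perigonadal white fat (PGWAT, white adipose tissue around the gonads) or the spleen. The control mice carried Foxp3Cre alone, and the Tbet flox mice carried a Tbet allele flanked by recombination sites together with Foxp3Cre, so both genotypes held the Cre transgene, which acts wherever the Foxp3 promoter is used. T-bet, encoded by Tbx21, is the transcription factor of type 1 T cell responses. Each of the 4 groups held 3 Illumina mouse arrays, and the labels do not say whether the 3 came from separate animals, so p-values here reflect the spread among these samples alone, which may be technical.

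Glycolysis splits glucose into pyruvate in the cytosol. Transporters bring glucose in, hexokinase traps it, the preparatory enzymes spend ATP, and the pay-off enzymes return ATP and NADH. Pyruvate is then either reduced to lactate and exported, or oxidised in mitochondria by the pyruvate dehydrogenase complex, which kinases of the Pdk family switch off. The pentose phosphate pathway branches off early and yields NADPH and the sugars of nucleotides. Conventional effector T cells raise glycolysis on activation, whereas Tregs are known to rely more on mitochondrial oxidation.

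The promoters of the 4 genes that passed a test below, and of Pgk1, whose difference between genotypes in spleen lay closest to the threshold, are shown because the group differences concern the RNA made from them. They are RefSeq sequences of GRCm38.p6 from 250 bases before to 50 bases after the start of the gene, 5′ to 3′ on the strand of the gene. Capitals mark the core letters of the hypoxia response element, ACGTG or GCGTG, on either strand (the reverse strand reads CACGT or CACGC).
Pfkfb4 (chr9:108991652-108991951, + strand): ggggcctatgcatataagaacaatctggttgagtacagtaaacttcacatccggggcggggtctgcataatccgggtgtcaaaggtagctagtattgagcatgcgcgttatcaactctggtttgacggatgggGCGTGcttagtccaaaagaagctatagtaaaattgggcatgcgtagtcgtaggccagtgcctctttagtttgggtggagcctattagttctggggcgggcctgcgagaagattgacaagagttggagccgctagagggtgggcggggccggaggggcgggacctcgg
Pdha1 (chrX:160138381-160138680, - strand): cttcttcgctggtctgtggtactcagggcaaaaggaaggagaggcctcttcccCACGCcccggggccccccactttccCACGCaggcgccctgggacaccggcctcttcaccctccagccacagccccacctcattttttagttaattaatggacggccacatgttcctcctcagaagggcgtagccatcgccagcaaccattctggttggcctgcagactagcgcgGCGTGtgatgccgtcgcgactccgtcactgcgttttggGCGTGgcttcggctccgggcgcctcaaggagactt
Dld (chr12:31351422-31351721, - strand): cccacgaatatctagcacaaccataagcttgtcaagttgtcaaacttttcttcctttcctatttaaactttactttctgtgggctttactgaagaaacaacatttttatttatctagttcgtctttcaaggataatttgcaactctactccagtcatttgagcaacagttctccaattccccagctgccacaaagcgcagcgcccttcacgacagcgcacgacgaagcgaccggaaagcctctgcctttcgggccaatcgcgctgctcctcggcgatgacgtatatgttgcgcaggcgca
Taldo1 (chr7:141391910-141392209, + strand): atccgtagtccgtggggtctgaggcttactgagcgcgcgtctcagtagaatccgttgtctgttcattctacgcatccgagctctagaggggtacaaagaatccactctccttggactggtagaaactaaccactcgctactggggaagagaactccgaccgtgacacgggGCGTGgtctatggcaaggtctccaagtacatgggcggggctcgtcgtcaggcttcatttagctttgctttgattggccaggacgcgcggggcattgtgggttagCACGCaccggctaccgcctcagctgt
Pgk1 (chrX:106186850-106187149, + strand): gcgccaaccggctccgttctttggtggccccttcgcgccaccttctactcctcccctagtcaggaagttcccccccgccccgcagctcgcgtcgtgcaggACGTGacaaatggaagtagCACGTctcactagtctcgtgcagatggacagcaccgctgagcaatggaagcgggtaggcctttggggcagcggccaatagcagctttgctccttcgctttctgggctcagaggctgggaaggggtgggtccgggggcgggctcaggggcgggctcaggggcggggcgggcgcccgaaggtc

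The hypoxia core letters occurred 1 time in the Pfkfb4 window, 4 times in Pdha1, 2 times each in Taldo1 and Pgk1 and 0 times in Dld. Promoter entries were found for 28 of the 29 measured genes, which had 40 promoters between them, and Slc2a3 had none. The core was present in 29 of the 40 (72.5%), against 43.8% of all 32851 promoters of the same length. The T-box letters GGTGTGA, which T-bet and its relatives recognise, were present in 1 of the 40 (2.5%), against 3.98% of all. The GC box letters GGGCGG, also read on both strands, were present in 21 of the 40 (52.5%), against 35.7%. Matches of different motifs may overlap, a gene with several promoters counts more than once, and a match does not show a site in use. The promoters compared include those of genes not measured here and were not matched for base composition. Both forms of the hypoxia core contain the letters CG, and the part of base composition in these shares was not tested.

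The number of probes detected at p under 0.01 ran from 11252 to 17090 over the arrays. Values below are normalized log2 intensities, on which the lowest possible level is 4. The PGWAT arrays of a group varied more than the spleen arrays: the median SD of the 29 genes was 0.413 for the control and 0.411 for the Tbet flox arrays of PGWAT, but 0.175 and 0.139 for those of spleen. All PGWAT arrays lay on 1 chip and all spleen arrays on another, so tissue and chip cannot be told apart, and within a chip the genotypes held different positions, so genotype and position cannot be told apart either. Tbx21 read 4.62, 7.40 and 4.96 on the PGWAT control arrays, 8.45, 4.86 and 4.54 on the PGWAT Tbet flox arrays, 4.80, 6.03 and 4.95 on the spleen control arrays and 4.94, 4.98 and 4.71 on the spleen Tbet flox arrays. It did not separate the genotypes (limma adjusted p = 0.977 in PGWAT and 0.634 in spleen), and whether its probe lies in the floxed part is not given in the sources used here, so it does not check the labels. Foxp3 averaged 7.54 (control) and 8.36 (Tbet flox) in PGWAT, and 8.63 and 8.54 in spleen, and its lowest level, 5.44, was that of PGWAT control 1.

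Markers of other cells were present in the PGWAT samples and differed between groups. The 13 measured of 16 macrophage and monocyte markers summed to an intensity of 18580 to 20800 for PGWAT control, 2082 to 13000 for PGWAT Tbet flox, 3031 to 4180 for spleen control and 2554 to 3231 for spleen Tbet flox. The lowest of these sums, 2082, was that of PGWAT Tbet flox 3. The 5 measured of 8 adipocyte markers summed to 2975 to 8540, 2487 to 4324, 114.7 to 127.1 and 113 to 116.1 in the same order, and Adipoq, Fabp4, Lep and Cidec were undetected on every spleen array. The 7 measured of 9 dendritic cell markers summed to 14180 to 14710, 2826 to 10020, 1055 to 1400 and 869.4 to 1180. The 7 measured of 12 stromal and endothelial markers summed to 1933 to 9045, 1701 to 3734, 246.9 to 281.4 and 275.4 to 289.8. The 5 measured of 8 CD8 and NK cell markers summed to 189.8 to 615.6, 528.3 to 1214, 347.1 to 369.6 and 300.6 to 387.7. For the 1 measured of 5 B cell markers the values were 22.21 to 66.64, 52.43 to 100.3, 87.37 to 124.3 and 92.55 to 123.1. For the 2 measured of 5 red cell markers they were 211.7 to 952.2, 353.6 to 851.6, 325.4 to 359.6 and 174.8 to 390.1. The 11 measured of 12 T cell identity genes summed to 4715 to 8668, 9352 to 10260, 11420 to 12150 and 11120 to 11690, and the 9 measured of 11 Treg core genes to 2025 to 4177, 5284 to 6565, 2854 to 3429 and 3667 to 4741. In PGWAT the genotypes did not overlap in the macrophage, dendritic cell, T cell identity and Treg core sums, but did in the others. In spleen only the Treg core sums kept the genotypes apart. Between tissues the adipocyte, stromal, dendritic cell and T cell identity sums did not overlap in either genotype. The macrophage sums overlapped between tissues in Tbet flox, and the Treg core sums in control. The part of these sums in the results below was not tested. Glycolytic genes are used by every cell type, so in these bulk samples fewer cells of a type and less RNA per cell cannot be told apart.

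**Figure D1:**
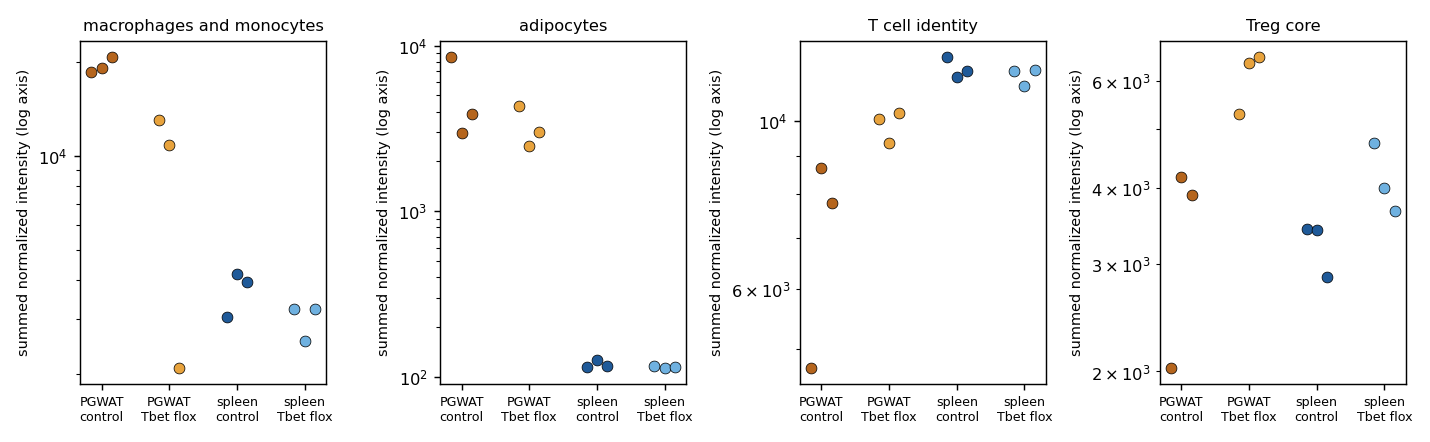
Summed normalized intensity (log axis) of the measured macrophage, adipocyte, T cell identity and Treg core markers on each of the 12 arrays, by group. Macrophage sums were 18580 to 20800 in PGWAT control, and PGWAT Tbet flox 3 had the lowest of all, 2082.

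Read by their brightest probes, few of the 29 genes were separated by the tests, and only between tissues. In each comparison a gene passed when its limma p-value, adjusted over all 15308 tested by the method of Benjamini and Hochberg, was under 0.05. Between PGWAT and spleen in control mice 3 of 29 passed (10.3%), against 15.1% of all genes tested: Pfkfb4 was higher in PGWAT (6.52% of all were higher), and Pdha1 and Taldo1 were lower (8.58% of all were lower). Between PGWAT and spleen in Tbet flox mice 2 of 29 passed (6.9%), against 9.48% of all: Dld and Pdha1 were lower in PGWAT (4.96% of all were lower). Between genotypes 0 of 29 passed in PGWAT, against 0.209% of all, and 0 of 29 in spleen, against 1.76% of all. A dimmer probe of Pgk1, Pfkp and Pdhb did pass in spleen, over all probes kept (limma adjusted p = 0.0442, 0.0436 and 0.0415). The genotype effect differed between the tissues for 0 of 29, against 0.0719% of all. With so few genes these shares lie near those of all genes tested.

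**Figure D2:**
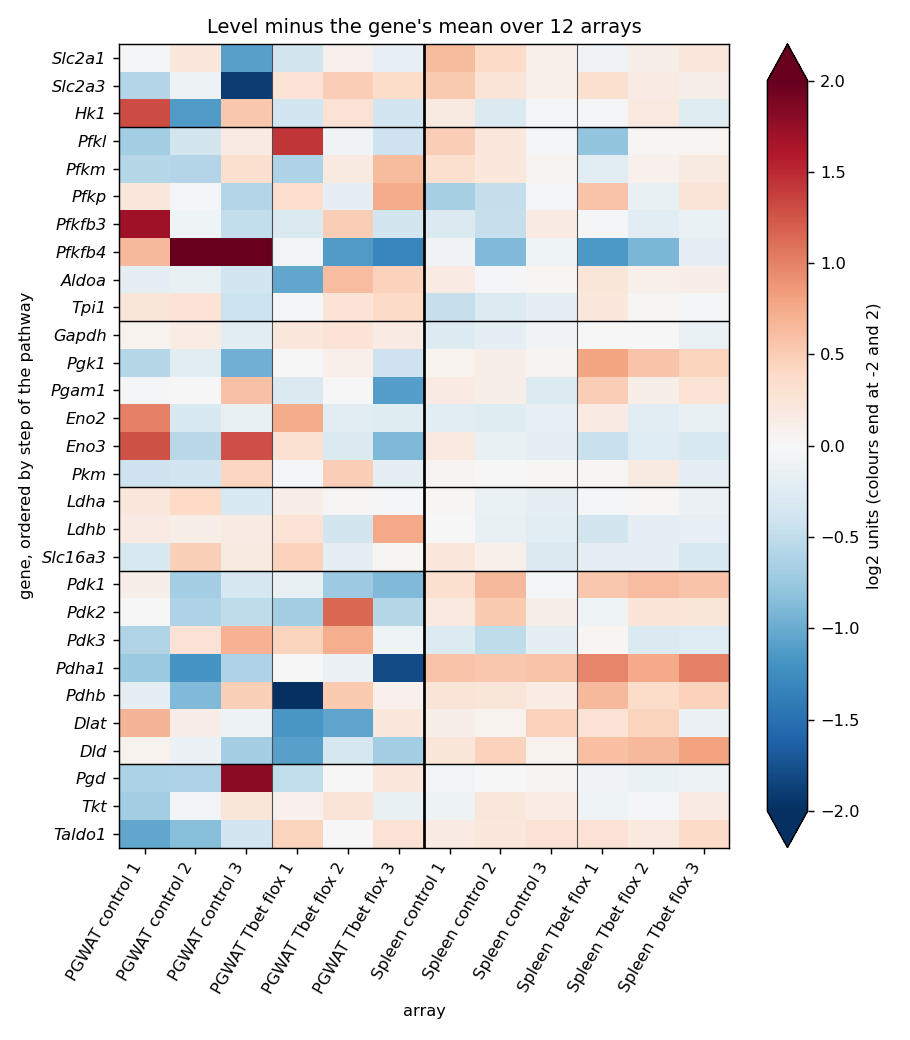
Level of the 29 measured genes, grouped by role, on each of the 12 arrays as log2 intensity minus the mean of the gene, with colours ending at -2 and 2. The strongest colours lie on the PGWAT arrays, where Pfkfb4 is above its mean on the 3 control arrays, near it on Tbet flox 1 and below it on Tbet flox 2 and 3.

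At weaker cut-offs the genotype counts were close to those of all genes, and the tissue counts were lower. At an unadjusted limma p under 0.05 stood 3 of 29 for genotype in PGWAT (10.3% against 9.94% of all) and 5 of 29 for genotype in spleen (17.2% against 17.9%). The same cut-off held 3 of 29 for the difference of the genotype effects (10.3% against 10.5%), and 5 of 29 (17.2%) between tissues in each genotype, against 29.1% of all in control and 24.4% in Tbet flox. The genotype groups did not overlap for 4 of 29 in PGWAT (13.8% against 14.5% of all) and for 7 of 29 in spleen (24.1% against 23.1%). Between tissues the groups did not overlap for 8 of 29 in control (27.6% against 36.9%) and for 7 of 29 in Tbet flox (24.1% against 37.9%). The sign of the genotype difference was the same in PGWAT and spleen for 13 of 29 genes (44.8%), against 50.3% of all, and the sign of the tissue difference was the same in both genotypes for 20 of 29 (69%), against 70.2% of all. The median difference of the 29 was 0.16 for genotype in PGWAT (0.04 over all genes), but -0.04 (-0.08 over all) when arrays were scaled to 1 median. It was 0.02 between tissues in control (-0.12 over all) and 0.04 in Tbet flox (-0.04 over all), but -0.16 and -0.20 (-0.22 and -0.28 over all) under median scaling, so the sign of these 3 medians rests on the scaling. In spleen the genotype median was 0.06 (-0.01 over all).

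Of the genes of glucose entry and trapping, 3 of 4 were measured and none passed in any comparison. Slc2a3 encodes a high-affinity glucose transporter of lymphocytes. It read 7.18, 7.66 and 5.87 on the PGWAT control arrays, 8.03, 8.26 and 8.13 on the PGWAT Tbet flox arrays, 8.29, 8.02 and 7.86 on the spleen control arrays and 8.08, 7.92 and 7.88 on the spleen Tbet flox arrays. The PGWAT control arrays were the 3 lowest and overlapped with no other group, while the other 3 groups lay close together. Its difference between PGWAT and spleen in control was -1.15 ± 0.37 (SE), just short of the threshold (limma adjusted p = 0.0537). It passed without PGWAT control 2 (limma adjusted p = 0.0351) and without spleen control 3 (0.0416). It also passed with an offset of 50 (0.0471), in the authors' processed table (0.0483) and with the mean of the probes (0.0441). Slc2a3 has 1 probe, so taking the mean of the probes left its own values unchanged. Between genotypes in PGWAT it measured 1.24 ± 0.50 higher in Tbet flox (limma adjusted p = 0.433), and the genotype effect in PGWAT minus that in spleen was 1.33 ± 0.53 (adjusted p = 0.385). Slc2a1, the widespread glucose transporter, measured -0.68 ± 0.37 between PGWAT and spleen in control (limma adjusted p = 0.249) and -0.29 ± 0.16 between genotypes in spleen (0.36). Hk1, a hexokinase, had differences from -0.39 to 0.29 in the 4 comparisons of groups, none past the test, and by its dimmer probe from -0.99 to 0.45.

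**Figure D3:**
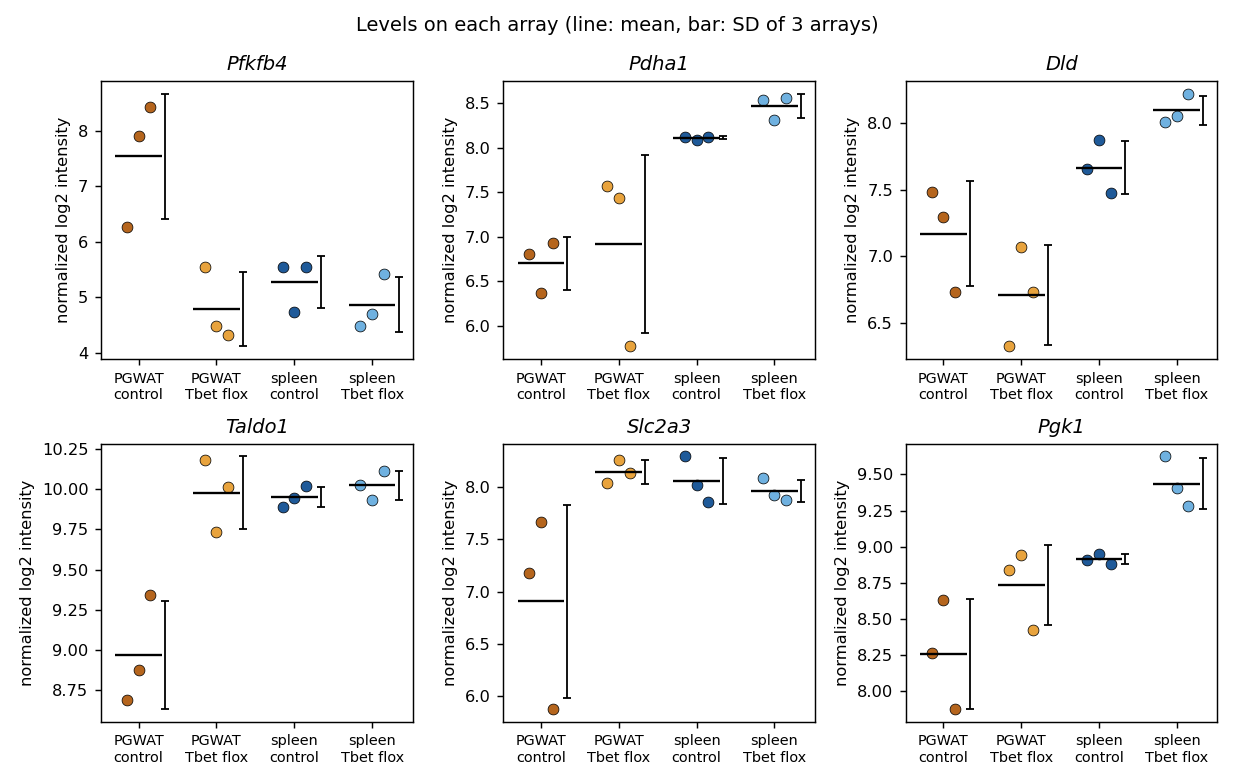
Level (normalized log2 intensity) of Pfkfb4, Pdha1, Dld, Taldo1, Slc2a3 and Pgk1 on each array, where dots are arrays, lines are means and bars are the SD of the 3 arrays of a group. Pdha1 lies between 8.09 and 8.56 on all spleen arrays and between 5.77 and 7.57 on all PGWAT arrays.

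Among the preparatory enzymes and their regulators, 7 of 9 were measured, and Pfkfb4 stood apart. Pfkfb4 makes and breaks down the sugar phosphate that switches phosphofructokinase on. It read 6.27, 7.92 and 8.44 on the PGWAT control arrays, 5.55, 4.49 and 4.31 on the PGWAT Tbet flox arrays, 5.55, 4.74 and 5.54 on the spleen control arrays and 4.47, 4.70 and 5.42 on the spleen Tbet flox arrays. All 3 PGWAT control arrays were above every other array, and only there was the probe detected on 3 of 3 arrays, against 2 of 3 for spleen control and 1 of 3 for each Tbet flox group.

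Pfkfb4 was 4.80-fold higher in PGWAT than in spleen in control mice, a log2 difference of 2.26 ± 0.65 (SE, limma adjusted p = 0.0312). It lost this call without PGWAT control 2 (limma adjusted p = 0.118), PGWAT control 3 (0.16) or PGWAT Tbet flox 2 (0.0516), with no filter on dim probes (0.0562), with only the groups compared (0.0636) and with a weight for each array (0.0582). Over all alternatives its adjusted p ran from 0.0166 to 0.16. In Tbet flox mice the tissue difference was -0.08 ± 0.65 (limma adjusted p = 0.958). Between genotypes in PGWAT it measured -2.75 ± 0.87 in Tbet flox, the largest genotype difference of the 29 genes, without passing (limma adjusted p = 0.29); with 1 spread shared by all arrays it passed (0.0229). The difference between the genotype effects of the tissues was -2.34 ± 0.91 (limma adjusted p = 0.375). On the same arrays the macrophage and dendritic cell sums given above were also highest in PGWAT control, and their part in the Pfkfb4 difference was not tested.

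The other preparatory genes did not pass in any comparison. Pfkp, the phosphofructokinase form common in lymphocytes and platelets, read 7.16, 7.34 and 7.80 on the spleen control arrays and 8.40, 7.68 and 8.07 on the spleen Tbet flox arrays, with overlap between the groups. The genotype difference was 0.61 ± 0.20 (limma adjusted p = 0.119), and its dimmer probe gave 0.81 (limma adjusted p = 0.0436 over all probes kept). In PGWAT these probes disagreed, at 0.43 and -1.14, and neither passed. Tpi1, triose phosphate isomerase, read 8.59, 8.79 and 8.86 on the spleen control arrays and 9.27, 9.08 and 9.04 on the spleen Tbet flox arrays, without overlap, a difference of 0.38 ± 0.12 (limma adjusted p = 0.126). Pfkl, the liver form of phosphofructokinase, measured -0.47 ± 0.23 in spleen Tbet flox (limma adjusted p = 0.306). Aldoa, the main aldolase, had differences between -0.29 and 0.25, and Pfkm (brightest probe) and Pfkfb3 between -0.48 and 0.57.

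Of the pay-off enzymes 6 of 7 were measured, none passed, and Pgk1 came closest. Pgk1, phosphoglycerate kinase, makes the first ATP of the pay-off phase. It read 8.26, 8.63 and 7.88 on the PGWAT control arrays, 8.84, 8.94 and 8.42 on the PGWAT Tbet flox arrays, 8.91, 8.95 and 8.88 on the spleen control arrays and 9.62, 9.40 and 9.28 on the spleen Tbet flox arrays. All 3 spleen Tbet flox arrays were above every other array. The genotype difference in spleen was 0.52 ± 0.12 (SE, limma adjusted p = 0.0531, with a range of 0.0205 to 1 over the alternatives), and the dimmer of its 2 probes gave 0.60 (limma adjusted p = 0.0442 over all probes kept). In PGWAT it measured 0.48 ± 0.40 higher in Tbet flox (limma adjusted p = 0.785), so the genotype effects of the tissues differed by -0.05 ± 0.41. PGWAT measured lower than spleen in both genotypes, without overlap, with differences of -0.66 ± 0.29 in control and -0.70 ± 0.29 in Tbet flox (limma adjusted p = 0.156 and 0.157).

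The other pay-off genes showed smaller or less even differences. Gapdh, often used as a reference gene, averaged 9.67 ± 0.19 (SD, n = 3) for control and 9.89 ± 0.05 for Tbet flox in PGWAT, and 9.49 ± 0.10 and 9.63 ± 0.08 in spleen. Its largest difference was 0.26 (95% interval -0.30 to 0.82), between tissues in Tbet flox. Pgam1, phosphoglycerate mutase, measured -0.64 ± 0.49 between genotypes in PGWAT (limma adjusted p = 0.757) and 0.29 ± 0.15 in spleen (0.346), and the difference between these effects was -0.94 ± 0.52 (0.564). Its dimmer probe disagreed, with 0.24 for genotype in PGWAT and 0.06 for the difference of effects. Eno3, the muscle enolase, read 6.56, 4.74 and 6.58 on the PGWAT control arrays and 5.59, 4.99 and 4.39 on the PGWAT Tbet flox arrays, groups that overlapped, with a difference of -0.97 ± 0.56 (limma adjusted p = 0.619). Pkm, pyruvate kinase, had differences between -0.15 and 0.22 by its brightest probe, while its dimmer probe gave -0.95 for genotype in PGWAT, -0.49 in spleen and -0.75 between tissues in Tbet flox, none past the test. Eno2, the neuronal enolase, was detected on 0 of 3 spleen control arrays and on 1 of 3 in each other group.

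Of the lactate genes 3 of 4 were measured, and none passed in any comparison. Ldha, the lactate dehydrogenase subunit that dominates in glycolytic cells, read 10.11, 10.30 and 9.59 on the PGWAT control arrays, 10.02, 9.92 and 9.88 on the PGWAT Tbet flox arrays, 9.92, 9.76 and 9.70 on the spleen control arrays and 9.86, 9.92 and 9.77 on the spleen Tbet flox arrays. All 4 groups overlapped. Its genotype difference was -0.06 (95% interval -0.85 to 0.74) in PGWAT and 0.06 (-0.19 to 0.30) in spleen, so in spleen a change of more than 0.30 log2 units either way lay outside the interval. Ldhb, the subunit of oxidative tissues, and Slc16a3, a lactate exporter, were dim, each detected on 0 of 3 spleen Tbet flox arrays, and none of their differences passed.

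The genes of the pyruvate dehydrogenase complex and its Pdk kinases, all 7 of them measured, held 3 of the 4 calls of a lower level in PGWAT. In Tbet flox mice 6 of the 7 measured lower in PGWAT than in spleen, with a median difference of -1.01 (-0.04 over all genes, of which 8047 of 15308 measured lower), and 2 passed (4.96% of all passed as lower). In control mice 5 of the 7 measured lower, with a median of -0.50 (-0.12 over all genes, of which 8559 of 15308 measured lower), and 1 passed as lower (8.58% of all). The exception in both genotypes was Pdk3, a kinase of the complex, which measured 0.45 and 0.53 higher in PGWAT, and in control also Dlat, at 0.02. The genes that measured lower in both genotypes included Pdk1 and Pdk2, kinases that switch the complex off, beside its subunits. The Tbet flox median is the value of Pdhb by its brightest probe, and its other 2 probes gave -1.25 and 0.18.

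Pdha1, the catalytic alpha subunit of pyruvate dehydrogenase and the target of the Pdk kinases, was lower in PGWAT in both genotypes. It read 6.81, 6.37 and 6.93 on the PGWAT control arrays, 7.57, 7.43 and 5.77 on the PGWAT Tbet flox arrays, 8.12, 8.09 and 8.12 on the spleen control arrays and 8.53, 8.31 and 8.56 on the spleen Tbet flox arrays. Every PGWAT array was below every spleen array, and PGWAT Tbet flox 3 was the lowest. The difference was -1.41 ± 0.36 in control (2.65-fold lower, limma adjusted p = 0.0179) and -1.55 ± 0.36 in Tbet flox (2.92-fold lower, limma adjusted p = 0.0175). The control call was lost without PGWAT control 1 (0.057) or PGWAT control 2 (0.0893), and the Tbet flox difference was -0.97 without PGWAT Tbet flox 3, with limma adjusted p = 0.145. The Tbet flox call was also lost with only the groups compared (limma adjusted p = 0.0904) and without PGWAT control 1 and PGWAT Tbet flox 3 together (0.15). With a replicate block the calls of both genotypes were lost. Over all alternatives the adjusted p ran from 0.00606 to 0.0893 in control and from 0.00834 to 0.15 in Tbet flox. Between genotypes in spleen it measured 0.36 ± 0.15 higher in Tbet flox without overlap (limma adjusted p = 0.235), and in PGWAT 0.22 ± 0.48 (0.949).

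Dld, the dihydrolipoamide dehydrogenase shared by several mitochondrial complexes, was lower in PGWAT than in spleen in Tbet flox mice. It read 7.48, 7.29 and 6.73 on the PGWAT control arrays, 6.33, 7.07 and 6.74 on the PGWAT Tbet flox arrays, 7.65, 7.87 and 7.47 on the spleen control arrays and 8.01, 8.05 and 8.22 on the spleen Tbet flox arrays. The Tbet flox groups were the lowest and the highest by mean, and the control groups overlapped slightly. The difference was -1.38 ± 0.32 in Tbet flox (2.61-fold lower, limma adjusted p = 0.0172, with a range of 0.00591 to 0.126 over the alternatives) and -0.50 ± 0.32 in control (0.335). The Tbet flox call was lost without PGWAT Tbet flox 1 (limma adjusted p = 0.126) or PGWAT Tbet flox 3 (0.076), and without PGWAT control 1 and PGWAT Tbet flox 3 together (0.0749). Between genotypes it measured 0.43 ± 0.13 higher in spleen Tbet flox without overlap (limma adjusted p = 0.115) and -0.46 ± 0.43 in PGWAT (0.825), and the difference of these effects, -0.89 ± 0.45, did not pass (0.519).

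The other subunits and kinases did not pass, though some came close. Pdk1, a kinase that shuts the complex off and is induced in hypoxia, read 6.04, 5.24 and 5.59 on the PGWAT control arrays, 5.78, 5.20 and 5.03 on the PGWAT Tbet flox arrays, 6.25, 6.57 and 5.88 on the spleen control arrays and 6.46, 6.54 and 6.48 on the spleen Tbet flox arrays. In Tbet flox mice the tissues did not overlap, with a difference of -1.16 ± 0.38 (limma adjusted p = 0.0726) that passed without spleen control 2 (0.0401) or spleen control 3 (0.036) and under 5 other settings (limma adjusted p from 0.0193): median scaling, the mean of the probes, 1 shared spread, only the groups compared and a weight for each array. Pdhb, the beta subunit, read 4.92, 7.59 and 7.15 on the PGWAT and 7.73, 7.44 and 7.53 on the spleen Tbet flox arrays, with 1 PGWAT array far below the rest. Its difference was -1.01 ± 0.46 (limma adjusted p = 0.195), while its other 2 probes gave -1.25 (limma adjusted p = 0.0274 over all probes kept) and 0.18. In spleen the same 2 probes gave genotype differences of 0.62 (limma adjusted p = 0.0415) and -0.31, against 0.28 ± 0.19 for the brightest. Dlat, the acetyltransferase subunit, read 6.19, 5.65 and 5.41 on the PGWAT control arrays and 4.35, 4.46 and 5.71 on the PGWAT Tbet flox arrays, a difference of -0.91 ± 0.56 with overlap (limma adjusted p = 0.653). Pdk2 was detected on 1 of 3 arrays in each PGWAT group.

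**Figure D4:**
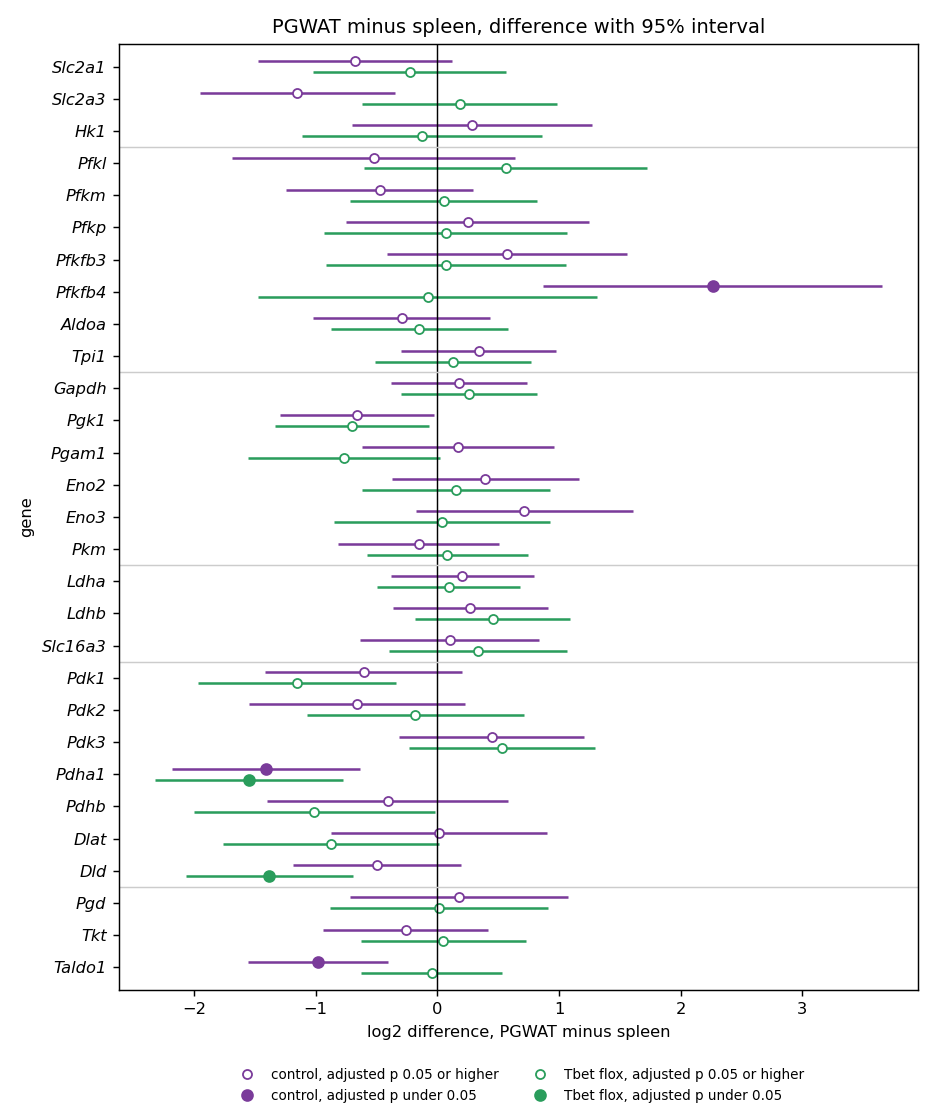
Difference between PGWAT and spleen (log2, PGWAT minus spleen) of each of the 29 genes in control and in Tbet flox mice, with 95% intervals from limma. Filled dots passed at an adjusted p under 0.05: Pfkfb4, Pdha1 and Taldo1 in control and Dld and Pdha1 in Tbet flox.

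In the pentose phosphate pathway 3 of 4 genes were measured, and Taldo1 differed between the tissues in control mice. Taldo1, transaldolase, links the sugars of the pathway back to glycolysis. It read 8.69, 8.88 and 9.34 on the PGWAT control arrays, 10.18, 9.73 and 10.01 on the PGWAT Tbet flox arrays, 9.89, 9.95 and 10.02 on the spleen control arrays and 10.02, 9.93 and 10.11 on the spleen Tbet flox arrays. The PGWAT control arrays were the 3 lowest, and the other 9 lay between 9.73 and 10.18. The tissue difference in control was -0.98 ± 0.27 (1.97-fold lower in PGWAT, limma adjusted p = 0.0255), which was lost without PGWAT control 1 (0.135) or PGWAT control 2 (0.0962), when arrays were scaled to 1 median (0.0709), with only the groups compared (0.052) and without PGWAT control 1 and PGWAT Tbet flox 3 together (0.16), with a range of 0.00438 to 0.16 over the alternatives. The control call was also lost with a replicate block. In Tbet flox the tissue difference was -0.05 ± 0.27 (limma adjusted p = 0.941). Between genotypes in PGWAT Taldo1 measured 1.01 ± 0.36 higher in Tbet flox without overlap, but did not pass (limma adjusted p = 0.351); with 1 spread shared by all arrays it passed (0.0358). The difference of the genotype effects was 0.93 ± 0.38 (limma adjusted p = 0.404). The summed T cell identity genes were likewise lowest in PGWAT control, and their part in the Taldo1 and Slc2a3 differences was not tested.

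Tkt, transketolase, showed no difference past the test, with values between -0.26 and 0.23. Pgd, an NADPH-producing enzyme of the pathway, read 4.34, 4.35 and 6.75 in PGWAT control, where 1 array set the mean, and it was detected on 1 of 3 arrays there. Its differences lay between -0.27 and 0.18.

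**Figure D5:**
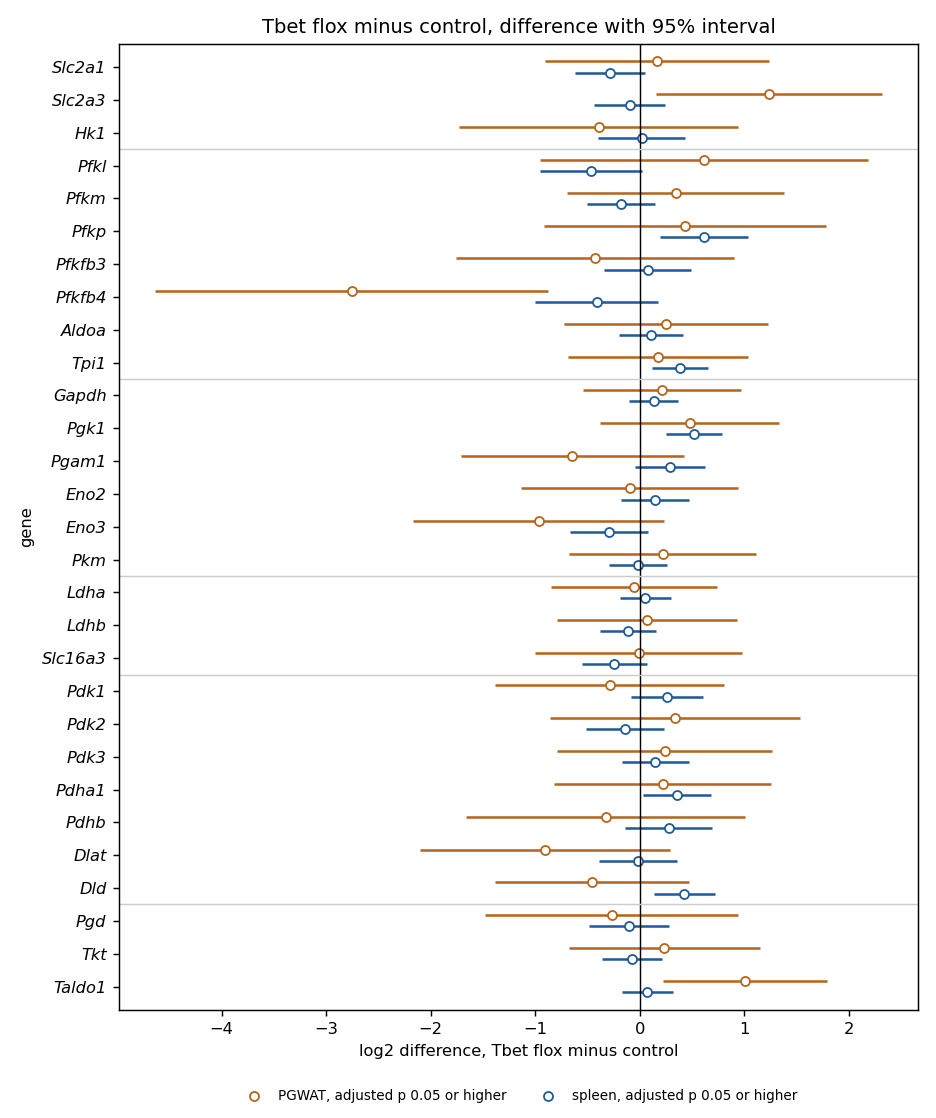
Difference between genotypes (log2, Tbet flox minus control) of each of the 29 genes in PGWAT and in spleen, with 95% intervals from limma. None passed at an adjusted p under 0.05, and the intervals are wider in PGWAT than in spleen.

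Other genes of glucose use, from a list of 30 with 18 measured, gave 2 that passed, both between tissues in control mice. In that comparison 15.1% of all genes tested passed, so these 2 of 18 do not set the list apart. Slc2a6, a transporter of the glucose carrier family, was higher in PGWAT control, by 2.69 ± 0.39 (limma adjusted p = 0.000587). It was not above background on any spleen control array, so it was at least 5.86-fold higher in PGWAT control, taking for each spleen control array the dimmest signal among detected probes, or the signal of the probe itself if brighter. Pdp2, a phosphatase that switches pyruvate dehydrogenase on, was lower in PGWAT control, with a difference of -2.51 ± 0.51 (limma adjusted p = 0.00532). In Tbet flox mice these differences were 0.97 ± 0.39 and -0.22 ± 0.51 and did not pass (limma adjusted p = 0.138 and 0.849), and the genotype effects of the tissues differed by -1.71 ± 0.55 for Slc2a6 and 2.29 ± 0.72 for Pdp2 without passing (limma adjusted p = 0.266 and 0.259). The closest to passing between tissues in Tbet flox were Pdp1, a related phosphatase, at 0.88 ± 0.27 (limma adjusted p = 0.0622) and Adpgk, an ADP-dependent glucokinase, at -1.16 ± 0.40 (0.0929). Between genotypes 0 of 18 passed by limma in either tissue. At an unadjusted limma p under 0.05, 2 were higher and 1 lower in PGWAT (9.94% of all genes in either direction). In spleen 2 were higher and 2 lower (17.9% of all genes in either direction). The smallest p-values belonged to Slc2a6 at -1.82 ± 0.52 in PGWAT (limma adjusted p = 0.25), Pdpr, a regulator of those phosphatases, at 1.85 ± 0.58 in PGWAT (0.285) and 0.52 ± 0.18 in spleen (0.15), and Adpgk at 0.57 ± 0.17 in spleen (0.102).

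Of 31 regulators of glucose use, 29 were measured, among them Pfkfb3 of the set described above, and they passed between tissues only. In control mice 2 were higher and 2 lower in PGWAT, a share near the 15.1% of all genes that passed, and in Tbet flox mice 3 were higher and 2 lower, against 9.48% of all. Epas1, a hypoxia-inducible factor abundant in endothelium and fat, was higher in PGWAT by 3.33 ± 0.49 in control and 2.99 ± 0.49 in Tbet flox (limma adjusted p = 0.000678 and 0.0025). Bhlhe40, a repressor used by activated and tissue T cells, was higher by 1.93 ± 0.37 and 2.20 ± 0.37 (limma adjusted p = 0.00355 and 0.00262). Tfam, which maintains mitochondrial DNA, was lower, with differences of -1.38 ± 0.39 and -2.42 ± 0.39 (limma adjusted p = 0.0295 and 0.00205). Foxo1, a factor of resting T cells, was lower in control (-1.63 ± 0.51, limma adjusted p = 0.0465). In Tbet flox Irf4, a factor of effector Tregs, was higher (1.66 ± 0.48, 0.0459) and Hif1an, which inhibits hypoxia-inducible factors, was lower (-1.67 ± 0.43, limma adjusted p = 0.0276). Between genotypes 0 of 29 passed by limma. At an unadjusted limma p under 0.05 stood 1 in PGWAT (9.94% of all genes). In spleen 3 were higher and 2 lower (17.9% of all genes in either direction). The oxygen-sensing hydroxylase genes Egln3 and Egln2 came closest in PGWAT, at 1.88 ± 0.52 and -1.25 ± 0.60 (limma adjusted p = 0.248 and 0.516). In spleen the closest were Tfam at 0.60 ± 0.16 and Txnip, which restrains glucose uptake, at -0.32 ± 0.12 (limma adjusted p = 0.0762 and 0.161). The stromal and endothelial marker sums were also higher in PGWAT than in spleen in both genotypes, and their part in the Epas1 difference was not tested.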

How the data were processed

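The 12 arrays came from the groups named in the sample titles and genotype labels. Per the labels' protocols, RNA was isolated with Qiagen Allprep, amplified with a NuGen Ovation kit and labelled with biotin. The deposited table gives an unnormalized bead intensity and a detection p-value for each probe and array, per the file headers, and the submitters' processing notes name GenomeStudio. A second deposited table holds the authors' processed intensity values and served as an alternative. The 45281 probes had 1 gene symbol (34885), several (18) or no symbol (10378).

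Intensities were background corrected from the detection p-values and quantile normalized with limma 3.58.1 in R 4.3.3 (offset 16, log2 scale). Probes with detection p under 0.05 on at least 3 arrays were kept (22833), and the brightest probe stood for its gene, leaving 10882 named genes and 4426 unnamed probes. All 12 arrays entered a single limma model of the 4 group means with a weight for each tissue (0.313 for PGWAT, 3.20 for spleen), two-sided, with Benjamini-Hochberg adjustment over all 15308. The model was also run on simulated data of independent normal noise, with the SD of each gene in each tissue taken from these arrays. Such data hold no outlying arrays and no mixtures of cells, so they do not show how steady the calls are there. The number of arrays limits the precision.

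Genes named are those past the threshold in each comparison, filled up to 6 by p-value; of each other list, up to 4 past the threshold or the 2 with the smallest p. Genes outside this rule are described by their range or were chosen after their values were seen. Values of dimmer probes come from the same model fitted to all probes kept. The members and lists were chosen with earlier results of these data known. Alternatives were median scaling, an offset of 50, the authors' table, no filter, a stricter filter, the mean of a gene's probes, 1 shared spread, only the groups compared, a weight for each array, an intensity trend with robust moderation, a replicate block and leaving out arrays. Promoters are from RefSeq (GRCm38.p6).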

Additional observations from a re-analysis of the deposited data

How the results depend on the processing

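Alternatives were run for the 6 of the 29 genes with the smallest p in each comparison, and not for genes of the other lists. None of these differences turned its sign. Of their 719 values, 674 stayed on the same side of the threshold, 23 crossed to pass and 22 crossed to fail. Most of these differences did not pass in the main fit, so staying on the same side mostly meant not passing again. The calls themselves were less steady. Of 24 alternatives, the control calls held in 21 for Pdha1, 18 for Taldo1 and 18 for Pfkfb4. The Tbet flox calls held in 21 for Dld and 20 for Pdha1. For genotype in PGWAT the count of the 29 genes that passed was 0, and 2 with 1 spread shared by all arrays (Pfkfb4 and Taldo1), where 580 of all genes passed instead of 32. For genotype in spleen it was 0, and 1 with an offset of 50, in the authors' processed table, with the stricter filter and with the intensity trend and robust moderation (Pgk1 each time), and 2 with the mean of a gene's probes (Pgk1 and Pfkp) or a weight for each array (Pgk1 and Dld). For tissue in control it was 3, and 1 with only the groups compared (Pdha1). It was 2 with median scaling (without Taldo1) and with no filter or a weight for each array (without Pfkfb4), and 4 with an offset of 50, the authors' table or the mean of a gene's probes (with Slc2a3). For tissue in Tbet flox it was 2, and 4 with median scaling (Pdk1, Pdha1, Pdhb and Dld). It was 3 (with Pdk1) with the mean of a gene's probes, 1 shared spread or a weight for each array, and with only the groups compared Pdk1 took the place of Pdha1. Leaving out each array in turn gave 0 to 0 for the 3 genotype comparisons, 1 (without PGWAT control 1 or 2) to 4 (without spleen control 3) for tissue in control and 0 to 3 for tissue in Tbet flox, where 1 remained without PGWAT Tbet flox 1 and 0 without PGWAT Tbet flox 3. Without PGWAT control 1 and PGWAT Tbet flox 3 together, arrays doubted after seeing the data, tissue in Tbet flox gave 0 and tissue in control 2. Over all genes tested, apart from leaving out 1 array, the number that passed ran from 0 (only the groups compared) to 580 for genotype in PGWAT, from 0 (1 shared spread) to 649 (a weight for each array) around 269 in spleen, and from 2 (replicate block) to 43 (no filter) around 11 for the difference of the genotype effects. It ran from 1449 (without the doubted arrays) to 2596 (trend and robust moderation) around 2311 for tissue in control, and from 709 (replicate block) to 2213 (a weight for each array) around 1451 in Tbet flox. The cause of these differences was not tested.

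Deviations from the group means correlated between -0.199 and 0.0757 for arrays of the same replicate number. Arrays of different numbers were not compared, so these values do not settle whether the numbers pair the samples. With a replicate block, 1 gene passed for tissue in control (Pfkfb4) and 1 for tissue in Tbet flox (Dld), and 0 in the 3 genotype comparisons, so Pdha1 passed in neither genotype (limma adjusted p = 0.0728 and 0.0766) and Taldo1 did not pass (0.0568). Dim probes limit Eno2, Ldhb and Slc16a3, detected on 3, 5 and 4 of the 12 arrays. They also limit Pfkfb4 (7 arrays), Pfkfb3 and Pdk2 (8 each), Pgd (9), and Eno3 and Dlat (10 each). The Pfkfb4 differences thus compare PGWAT control with groups near the lowest possible level.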

Other observations

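Hypoxia-induced genes outside glycolysis, from a list of 17 with 14 measured, were higher in PGWAT than in spleen for 4 genes in each genotype, and none was lower past the test (of all 15308 genes, 998 were higher past the test in control and 692 in Tbet flox). Anxa2, a membrane-binding protein, was higher by 1.79 ± 0.32 log2 units in control and 2.49 ± 0.32 in Tbet flox (limma adjusted p = 0.00261 and 0.000413). Ndrg1, a stress-response gene, was higher by 2.27 ± 0.50 and 2.83 ± 0.50 (limma adjusted p = 0.00859 and 0.00386), and Rora, a nuclear receptor, by 1.24 ± 0.31 and 1.44 ± 0.31 (0.0159 and 0.0114). Ero1a, an oxidase of protein folding, was higher in control (1.32 ± 0.37, limma adjusted p = 0.0303), and Mxi1, a Myc antagonist, in Tbet flox (2.83 ± 0.38, limma adjusted p = 0.00049). Between genotypes in spleen Anxa2 and Mxi1 fell in Tbet flox, by 0.97 ± 0.14 and 0.75 ± 0.16 on the log2 scale (limma adjusted p = 0.0113 and 0.0379). Of all 15308 genes 166 were lower past the test there. In the same comparison 12 of 13 macrophage markers measured lower, as did 7868 of all 15308 genes, and Csf1r fell by 0.93 ± 0.20 (limma adjusted p = 0.0373). The marker that went the other way, Lyz2, measured 0.58 ± 0.27 higher (limma adjusted p = 0.27). The part of these markers in the Anxa2 and Mxi1 differences was not tested. In PGWAT 0 of 14 passed between genotypes by limma, and 1 stood at an unadjusted p under 0.05 (9.94% of all genes). This was Mxi1 at 1.21 ± 0.51 (limma adjusted p = 0.45), followed by Car9 at 0.56 ± 0.39 (0.718). Pdk1 and Pgk1, which are also induced in hypoxia, measured lower in PGWAT than in spleen in both genotypes, without passing. They are 2 picked from the 29 genes and do not stand for the rest. Of the 29, 15 measured higher and 14 lower in PGWAT in control, and 16 and 13 in Tbet flox. Pfkfb4 passed as higher in PGWAT in control (2.26 ± 0.65, limma adjusted p = 0.0312) but not in Tbet flox (-0.08 ± 0.65). The stromal sums were higher on every PGWAT array than on any spleen array, and the macrophage sums on every PGWAT array but Tbet flox 3, and their part in these differences was not tested.

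Of 16 cell cycle genes 13 were measured. The replication helicase genes Mcm7, Mcm6 and Mcm4 were lower in PGWAT than in spleen in control mice. Their differences were -2.06 ± 0.42, -1.48 ± 0.30 and -1.41 ± 0.34 (limma adjusted p = 0.00532, 0.00538 and 0.0145). All 13 measured lower there, as did 8559 of all 15308 genes, of which 8.58% passed as lower. In Tbet flox only Mcm7 of the 13 passed (-1.58 ± 0.42, limma adjusted p = 0.0312), where 4.96% of all genes passed as lower. Top2a, a topoisomerase of dividing cells, was higher in spleen Tbet flox than in spleen control (1.23 ± 0.23, limma adjusted p = 0.0279). Of all 15308 genes 103 were higher past the test there. In PGWAT 0 of 13 passed between genotypes by limma, and 2 stood at an unadjusted p under 0.05 (9.94% of all genes). These were Mcm4 at 1.17 ± 0.46 and Mcm6 at 1.01 ± 0.40 (limma adjusted p = 0.409 and 0.421). All 13 measured higher in Tbet flox, as did 8019 of all 15308 genes. On the Tbet flox arrays the T cell sums were higher and the macrophage sums lower, and their part in this was not tested.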
